A study of Mus musculus with 8 samples.

Results

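The I-BAR genes Baiap2l1, Baiap2, Baiap2l2 and Mtss1 encode adaptor proteins that join the plasma membrane to the actin cytoskeleton. Baiap2l1 was selected on its measured acLDL change in wild type and on the difference of that change between genotypes, and its 3 relatives were added as members of its family. The 4 genes, of 15967 gene symbols with a probe, are represented by 5 probes of the deposited value table, found by gene symbol. The study compared 4 groups of 2 Illumina mouse beadchips. The samples are labelled bone marrow derived macrophages of female 129/BL6 mice, cultured for 5 days with medium conditioned by L929 cells, and are wild type or IRAK4 KI, a knock-in that leaves the kinase IRAK4 inactive. In each genotype the cells were untreated or had received acLDL (acetylated low-density lipoprotein, a modified lipoprotein that scavenger receptors take up) at 100 ug/ml for 24 hours. The labels give no age, and they do not say whether the paired arrays stand for different cultures or mice. The errors and p-values below therefore cover the spread between 2 samples of a group, and that spread may be technical.

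I-BAR domains are crescent-shaped membrane-binding domains whose convex face carries the membrane contact, so that they favour outward protrusions such as filopodia and ruffles, in contrast to the inward-bending classical BAR domains. Baiap2 (IRSp53) binds the GTPases Cdc42 and Rac and recruits WAVE, Ena/VASP and Eps8 proteins through its SH3 domain. Baiap2l1 (IRTKS) has the same I-BAR and SH3 arrangement and binds Eps8. Baiap2l2 (Pinkbar) is known from epithelial cells, where it shapes planar membrane sheets, and Mtss1 (MIM) binds actin monomers through a WH2 motif. Macrophages use actin-driven protrusions of this kind for ruffling and engulfment.

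The marker genes went against the labelled cell type, so group names below stand for the labels of the arrays. A probe counts as above noise where its intensity exceeds 36.7 units, which is 3 times a noise estimate made from the negative values. Of 12 macrophage markers 10 had a probe, 6 were above noise on all 8 arrays, and Itgam, Fcgr1 and Msr1 were on none. All 8 alveolar type II markers, both airway club markers with a probe and 7 of 8 epithelial markers were above noise on all 8 arrays, whereas the epithelial marker Epcam was on none. Among markers with a probe in the other lists, 5 of 6 endothelial, 2 of 3 alveolar type I and 1 of 3 ciliated ones were above noise on all 8 arrays. The alveolar type I marker Hopx and the ciliated marker Dnah5 were on none. Each array had between 11026 and 11033 of 24613 probes above noise, and the 2 arrays of a group correlated across genes at 0.982 to 0.986, a description only, since genes are not independent replicates. The arrays hold nearly the same values once sorted, so near-equal probe counts were fixed in advance and do not measure array quality. In such bulk samples, fewer cells of a type and less RNA per cell cannot be told apart. The genotype was not checked here on the Irak4 transcript, to which no probe is assigned in the probe table used.

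The promoters of the 2 members found in the promoter table, Baiap2l1 itself and Baiap2, are shown so that their start regions can be compared. They are the 250 bases before the start of Baiap2l1 (chr5:144358113-144358362, minus strand) and of Baiap2 (chr11:119942842-119943091, plus strand), from RefSeq on build GRCm38.p6, written 5′ to 3′. Capitals mark the GC box GGGCGG or its reverse complement, a motif added after the sequences were seen.
Baiap2l1: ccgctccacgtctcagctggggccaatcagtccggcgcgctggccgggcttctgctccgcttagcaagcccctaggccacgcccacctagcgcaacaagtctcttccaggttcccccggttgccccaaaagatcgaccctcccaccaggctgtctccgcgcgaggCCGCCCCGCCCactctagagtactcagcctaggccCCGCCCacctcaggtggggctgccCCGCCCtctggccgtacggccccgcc
Baiap2: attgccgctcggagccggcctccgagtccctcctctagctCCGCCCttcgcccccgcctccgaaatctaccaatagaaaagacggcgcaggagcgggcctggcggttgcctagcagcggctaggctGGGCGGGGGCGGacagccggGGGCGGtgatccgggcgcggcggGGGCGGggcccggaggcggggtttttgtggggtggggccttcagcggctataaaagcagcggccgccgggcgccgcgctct
Both windows are rich in G and C, at 70.4% for Baiap2l1 and 72.8% for Baiap2, and hold 4 and 5 GC boxes, neighbouring boxes sharing bases in places. A GC box occurs in 32.7% of all 32851 upstream windows of this length, whatever the number of boxes, and 5 or more occur in 1.93%. The share with 4 or more was not counted, and the G and C content was not compared with that of other windows. The heat shock element repeats GAANNTTC and TTCNNGAA and the cAMP response element TGACGTCA, searched on both strands of the full 300 base windows, had 0 matches in either gene. Among all windows of that length they occur in 7.86%, 8.52% and 1.79%. These matches describe letters in a window and were not tested against the expression values.

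Baiap2l1 was the one member with a large difference between groups, and its level was high in the wild type acLDL arrays alone among the 4 groups. Its probe (ILMN_2665609) was above noise on all 8 arrays. In wild type its intensity was 168 and 200.3 units untreated and 1151.6 and 1186.2 with acLDL. In IRAK4 KI it was 267.1 and 277.6 untreated and 249.4 and 221.8 with acLDL. The wild type acLDL arrays lay far above the other 6, and they were the highest of the 8 for 7.8% of all items. The arrays of no 2 groups overlapped, but how often that holds over all items was not counted, so nothing is read from it. The gene was chosen on these values. On the log2 scale after background correction the levels were 10.24 ± 0.03 in wild type with acLDL, 8.31 ± 0.03 in untreated KI, 8.13 ± 0.10 in KI with acLDL and 7.83 ± 0.14 in untreated wild type (SD, n = 2 each). In that order, the gaps between neighbouring groups were 1.94, 0.18 and 0.30 log2 units, each larger than the sum of the 2 groups' SDs (0.06, 0.13 and 0.25). The last 2 gaps exceed that spread only narrowly.

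**Figure D1:**
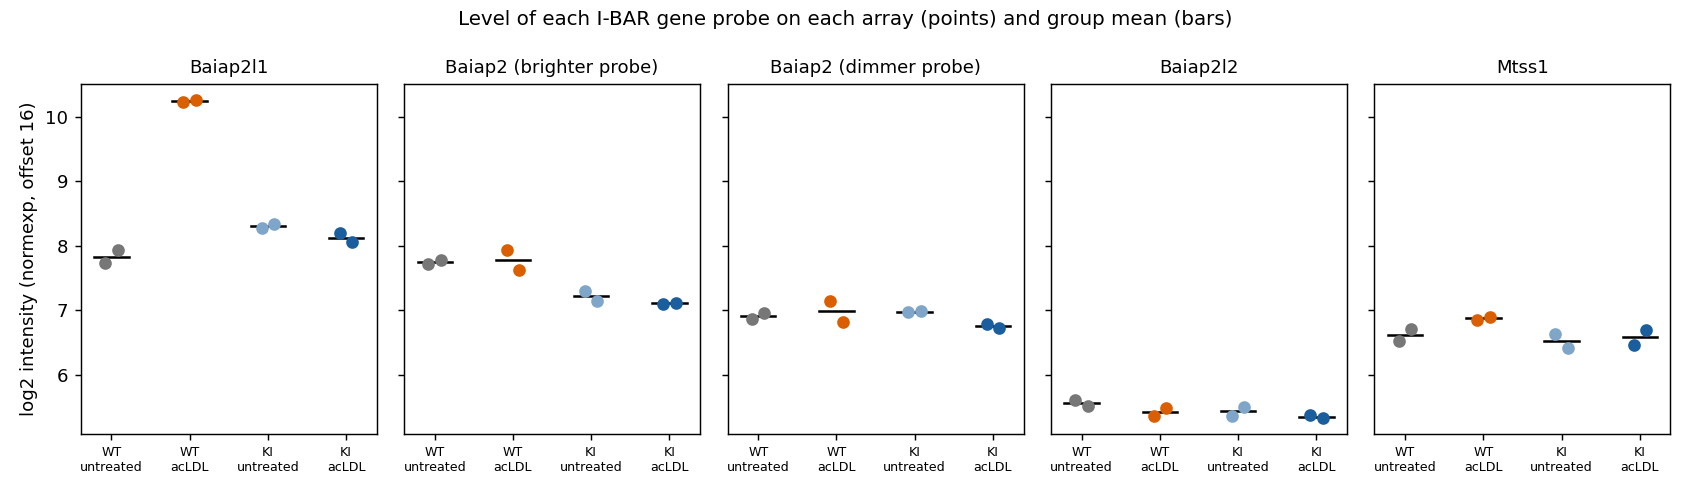
Level of each member probe, as log2 intensity after background correction (vertical axis), on each of the 8 arrays (points) by group, with the mean of 2 arrays as a bar. The Baiap2l1 points of wild type with acLDL sit at 10.22 and 10.26 against 7.73 to 8.33 on the other arrays, while heights are not comparable between panels because each probe has its own brightness.

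The change of Baiap2l1 with acLDL was 2.41 on the log2 scale in wild type (SE 0.11), which is 5.33-fold, and -0.18 in IRAK4 KI (SE 0.11, 95% interval -0.44 to 0.08). On the linear scale of the deposited intensities the ratio of means was 6.35 in wild type and 0.865 in KI. The background correction, including its offset, raises these intensities and so compresses changes. The difference of the effects, KI minus wild type, was -2.59 (SE 0.16). KI differed from wild type by 0.47 when untreated (SE 0.11) and by -2.12 with acLDL (SE 0.11). By size the wild type change ranked 9 of 10187 tested items, an item being 1 gene or 1 probe without a gene name. Because the gene was chosen for this pattern, these values are a description and carry no test. The call rule of the fit, a Benjamini-Hochberg adjusted p under 0.05, was met by 0.177% of items for acLDL in wild type, 0.0196% for acLDL in KI, 0.0491% for the difference of effects, 0.00982% for genotype without acLDL and 0.216% for genotype with acLDL.

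The summed marker levels of the wild type arrays stand beside this change. With acLDL, the summed intensity of the macrophage list in wild type was 24534 to 28857 units against 28934 to 30896 untreated. Such a sum mostly follows its brightest genes, here Lyz2 and Sirpa, at mean log2 levels of 14.46 and 12.49. The next brightest macrophage marker, Mrc1, was at 9.84. The sum of the airway club list was 45379 to 47661 units with acLDL against 48652 to 49912 without. The alveolar type I list was at 29915 to 30550 units with acLDL against 29353 to 29393 without. The wild type ranges overlapped for the alveolar type II, ciliated, epithelial and endothelial lists, at 7620 to 8317 against 8128 to 8546 units for the epithelial one. The part of cell composition in the Baiap2l1 values was not tested.

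No relative passed the test. Of the 3 relatives, 2 could be tested, and 0 of these 2 passed the test in any of the 5 comparisons (limma, Benjamini-Hochberg over all items). At an unadjusted p under 0.05 the count was 0 for both acLDL changes and for their difference. It was 1 for genotype both without and with acLDL, and that gene was Baiap2 each time. Of all items, 15% and 21.8% had such a p for genotype without and with acLDL. The shares were 12% for acLDL in wild type, 6.46% for acLDL in KI and 8.59% for the difference. Each array enters several of the 5 comparisons.

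**Figure D2:**
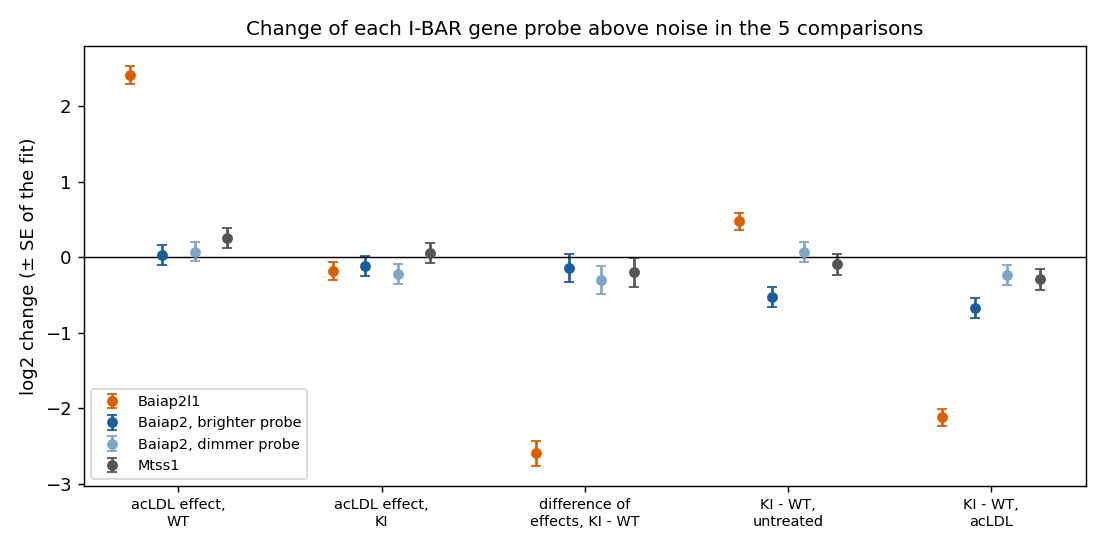
Log2 change (vertical axis, error bars are the SE of the fit over all 8 arrays) of the 4 member probes above noise in the 5 comparisons. Baiap2l1 stands at 2.41 for acLDL in wild type and -2.59 for the difference, while the relatives lie between -0.67 and 0.26 throughout.

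Baiap2, the Cdc42 effector of the family, had 2 probes above noise on all 8 arrays. On the brighter probe (ILMN_2733091) its log2 level was 7.71 and 7.78 in untreated wild type, 7.93 and 7.62 in wild type with acLDL, 7.30 and 7.14 in untreated KI, and 7.10 and 7.11 in KI with acLDL. The treated and untreated arrays overlapped in wild type, while every KI array lay below every wild type array. The acLDL change was 0.03 in wild type (95% interval -0.27 to 0.33, limma adjusted p = 0.96) and -0.11 in KI (95% interval -0.41 to 0.19, limma adjusted p = 0.893). The wild type change of Baiap2 was smaller than the 2.41 of Baiap2l1, a value for which that gene was chosen. A p over the threshold does not show that Baiap2 stayed the same. The difference of effects was -0.14 (SE 0.18, limma adjusted p = 0.847).

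Between genotypes the brighter Baiap2 probe had a log2 difference of -0.52 without acLDL (SE 0.13, limma adjusted p = 0.199) and of -0.67 with acLDL (SE 0.13, limma adjusted p = 0.0803), neither past the test. Over both treatments, a comparison added after these values were seen, the wild type level was 7.76 ± 0.13 and the KI level 7.16 ± 0.09 (SD, n = 4 each), a difference of -0.60 (SE 0.09, limma adjusted p = 0.0428). Because the comparison was chosen on the Baiap2 values, its p for Baiap2 is a description and carries no test. The fit of this comparison called 3.39% of all items. Its call for Baiap2 was lost without any one of 7 of the 8 arrays (limma adjusted p = 0.0641 to 0.143) and held only without wild type acLDL replicate 2 (adjusted p = 0.0265). Complete separation with all KI arrays lower was found for 8.71% of all items, so it is common in these arrays. The summed epithelial markers were also lower in KI, at 6992 to 7544 units against 7620 to 8546 in wild type. The genotypes overlapped for every other marker list, with alveolar type II at 88948 to 97746 units in KI against 89800 to 104144 in wild type. The part of cell composition in the Baiap2 values was not tested.

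The dimmer Baiap2 probe (ILMN_3163374) had overlapping genotypes. Its log2 level was 6.87 and 6.95 in untreated wild type, 7.15 and 6.82 in wild type with acLDL, 6.97 and 6.99 in untreated KI, and 6.79 and 6.72 in KI with acLDL. The means were close, with a wild type level of 6.95 ± 0.15 and a KI level of 6.87 ± 0.13 (SD, n = 4 each), and the difference over both treatments was -0.08 (SE 0.09, limma adjusted p = 0.595 with every probe tested on its own).

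The gap between both probes was taken on each array, also after their values were seen. The log2 difference, brighter minus dimmer, was 0.84 and 0.83 in untreated wild type, 0.78 and 0.80 in wild type with acLDL, 0.33 and 0.15 in untreated KI, and 0.31 and 0.39 in KI with acLDL. All 4 wild type arrays thus lay between 0.78 and 0.84, with an SD of 0.03, and all 4 KI arrays were lower. The means were 0.81 and 0.30, a difference of -0.51, given as a description with no test because the gap was chosen for it. Of 1355 genes with at least 2 probes above noise, 16.2% had a gap of their 2 brightest probes that separated the genotypes completely, and by size the Baiap2 difference ranked 98. The values do not show which of the probes follows the gene.

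**Figure D3:**
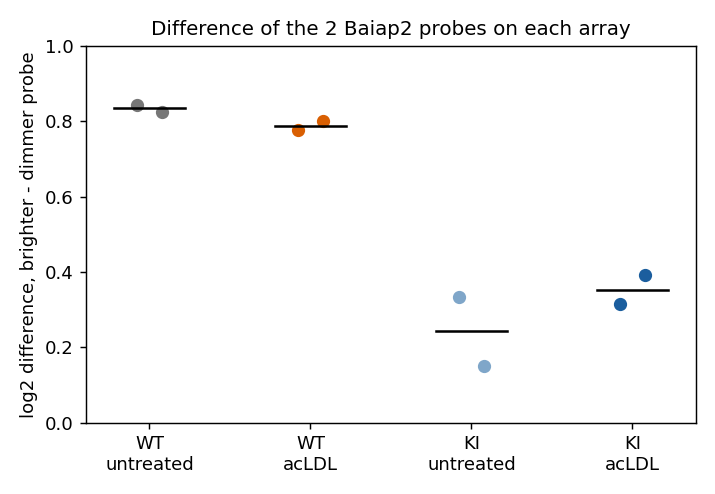
Log2 difference between the brighter and the dimmer Baiap2 probe (vertical axis) on each array (points) by group, with the mean of 2 arrays as a bar. Wild type arrays lie at 0.78 to 0.84 and KI arrays at 0.15 to 0.39.

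Baiap2l2, the epithelial member, was not above noise on any of the 8 arrays. Its probe (ILMN_1215537) had intensities of -3.8 to 4.6 units, so it was not tested and no fold is given. The related gene Mtss2, of the same subfamily as Mtss1, likewise stayed under the noise limit on every array, at -5 to 28.4 units.

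Mtss1, the actin monomer binding member, was dim but above noise on all 8 arrays (ILMN_1255439). Its log2 level was 6.52 and 6.72 in untreated wild type, 6.85 and 6.90 in wild type with acLDL, 6.64 and 6.41 in untreated KI, and 6.47 and 6.69 in KI with acLDL. The 2 wild type acLDL arrays were the highest of the 8, as they were for 7.8% of all items, and the other 3 groups overlapped. The acLDL change was 0.26 in wild type (95% interval -0.05 to 0.56, limma adjusted p = 0.507) and 0.06 in KI (95% interval -0.25 to 0.36, limma adjusted p = 0.955). The difference of effects was -0.20 (SE 0.19, limma adjusted p = 0.788). Genotype differences were -0.09 without acLDL (limma adjusted p = 0.764) and -0.29 with it (limma adjusted p = 0.248). Mtss1 thus had its highest values in the same group as Baiap2l1. Its wild type change was 0.26 against 2.41 on the log2 scale and did not pass the test. The background correction compresses changes of dim probes more than those of bright ones. In deposited units the Mtss1 means in wild type were 54.45 untreated and 73.25 with acLDL.

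The pattern of Baiap2l1 was next compared with that of every named gene. The measure was the root mean square, over the 8 arrays, of the difference between both genes' log2 levels after each gene's own mean was subtracted. A gene with no variation would be 0.951 log2 units away, and the median gene was 0.956 away. Mtss1 and Baiap2 were at 0.837 and 0.858, ranks 400 and 680 of 8756. The 6 nearest genes were Mpp3, a membrane-associated scaffold of the MAGUK class (0.488), Errfi1, a feedback inhibitor of the EGF receptor (0.521), and Tmem252, a transmembrane protein gene (0.564). They were followed by Per1, a repressor of the circadian clock (0.582), Csrnp1, a nuclear immediate early gene (0.593), and Phlda2, an imprinted gene with a PH domain (0.607).

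Each of these 6 had both wild type acLDL arrays above all others, which the measure itself favours. Mpp3 had log2 levels of 6.94 and 6.42 in untreated wild type and 8.22 and 7.82 with acLDL, against 6.89 to 6.98 in all 4 KI arrays. Errfi1 went from 12.10 and 11.79 to 13.53 and 13.48 in wild type, with KI values of 11.93 and 12.88 untreated and 12.74 and 12.49 with acLDL. The wild type log2 changes of the 6 genes ran from 0.92 (Phlda2) to 1.56 (Errfi1), below the 2.41 of Baiap2l1. Their KI changes ran from -0.05 (Phlda2) to 0.32 (Csrnp1).

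**Figure D4:**
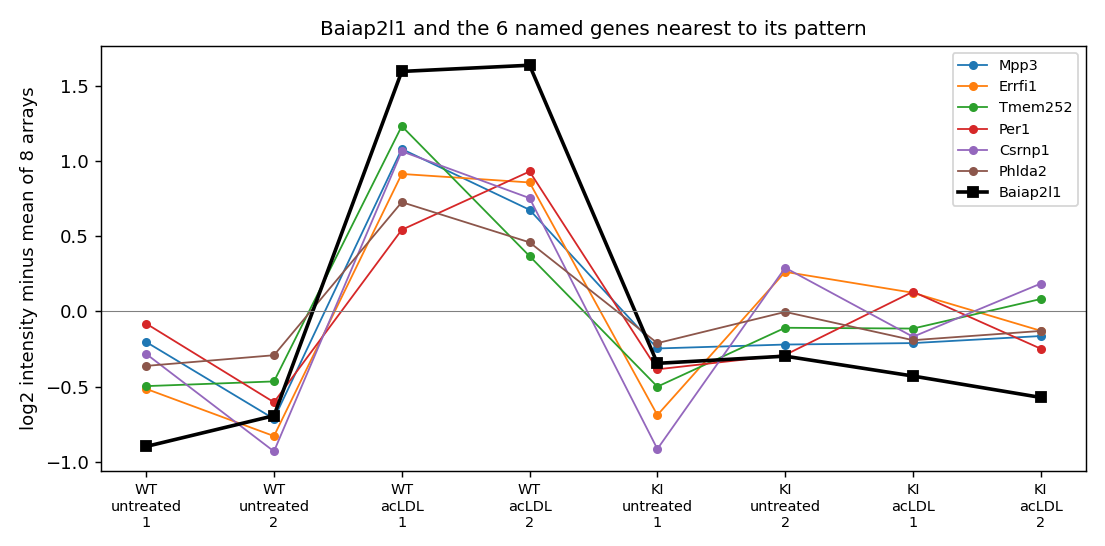
Log2 intensity minus the mean of 8 arrays (vertical axis) on each array for Baiap2l1 (black squares) and the 6 nearest named genes (coloured lines join the arrays of a gene for reading only). All 7 genes are highest on the 2 wild type acLDL arrays, and Baiap2l1 lies farthest above its own mean there.

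Of the 6, 5 have promoter windows in the table, and 1 of these genes, Errfi1, has a match to the heat shock or cAMP elements, in 1 of its 2 windows. It is a cAMP response element, shown here in capitals with its flanks because these 5 genes hold no other match to those elements, and it ends 43 bases before the start (chr4:150854998-150855047, plus strand, RefSeq, GRCm38.p6).
Errfi1: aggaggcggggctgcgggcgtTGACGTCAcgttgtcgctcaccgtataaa
The window of Baiap2l1 shown above has 0 matches to this element, as do those of Tmem252, Per1, Csrnp1 and Phlda2.

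Proteins that work with I-BAR adaptors were then examined in 2 lists. The first holds 41 partners and actin genes (among them WASP and WAVE proteins, Ena/VASP, Eps8 proteins, formins, the Arp2/3 and WAVE complexes), of which 34 had a probe and 28 were tested. In each of the 5 comparisons 0 of 28 were called (limma). At an unadjusted p under 0.05 the counts were 3 for acLDL in wild type, 0 for acLDL in KI, 2 for the difference, 2 for genotype without acLDL and 5 with acLDL, where all items gave 12%, 6.46%, 8.59%, 15% and 21.8%. The median log2 change in wild type was -0.01, with 14 genes above and 14 below 0, and that of all items was 0.01. In the other comparisons the medians were -0.01, -0.02, -0.04 and -0.04, within 0.1 of the medians of all items.

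Rac2, the Rac GTPase of blood cells, had the smallest p for acLDL in wild type, at 8.09 and 8.59 untreated and 7.81 and 7.32 with acLDL (log2 change -0.78, SE 0.20, limma adjusted p = 0.231). Its KI levels were 7.83 and 7.80 untreated and 7.95 and 8.06 with acLDL, and the difference of effects was 0.97 (SE 0.29, limma adjusted p = 0.542). The signs of both values were opposite to those of Baiap2l1, and neither passed the test. Eps8, the actin-capping partner of both Baiap2 and Baiap2l1, had levels of 7.21 and 7.51 untreated and 7.68 and 7.91 with acLDL in wild type (log2 change 0.44, SE 0.14, limma adjusted p = 0.292). In KI Eps8 was at 7.69 and 7.59 untreated and 7.41 and 7.47 with acLDL, and the difference of effects was -0.64 (SE 0.19, limma adjusted p = 0.545).

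Between genotypes, Fscn1 (fascin, which bundles filopodial actin) had log2 differences of -0.51 without acLDL (limma adjusted p = 0.313) and -0.79 with it (limma adjusted p = 0.109). Wasf1 (WAVE1) had one of -0.39 with acLDL (limma adjusted p = 0.169) and Rac2 one of -0.53 without (limma adjusted p = 0.298). In the added comparison over both treatments 0 of 28 were called, and Fscn1 and Abi3, a WAVE complex subunit of blood cells, had the smallest p at -0.65 and -0.36 (limma adjusted p = 0.0517 and 0.129). In KI, Diaph3, a formin, and Was, the WASP gene, had acLDL changes of 0.33 and -0.28 (limma adjusted p = 0.781 and 0.796).

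The second list holds 35 other BAR domain genes, of which 29 had a probe and 20 were tested, and again 0 were called in each of the 5 comparisons (limma). At an unadjusted p under 0.05 there were 5 for acLDL in wild type, 1 for acLDL in KI and 2 for the difference. There were 3 for genotype without acLDL and 3 with acLDL. In the same order, all items gave 12%, 6.46%, 8.59%, 15% and 21.8%. The median log2 changes with acLDL were 0.02 (wild type) and -0.03 (KI). The medians were -0.09 for the difference, 0.003 for genotype without acLDL and -0.07 with acLDL. Those of all items were 0.01, -0.01, -0.02, -0.01 and -0.03. Trip10 (CIP4, an F-BAR effector of Cdc42) was at 8.09 and 8.17 in untreated wild type and at 8.77 and 8.62 with acLDL, a change of 0.57 (SE 0.13, limma adjusted p = 0.201). Its KI arrays were at 8.27 and 8.43 untreated and 8.26 and 8.53 with acLDL. Its difference of effects was -0.52 (limma adjusted p = 0.555). Fcho1, an F-BAR protein of clathrin-coated pits, had a change of -0.40 in wild type (limma adjusted p = 0.319) and of -0.26 in KI (limma adjusted p = 0.789), and Pstpip1, an F-BAR protein of blood cells, had one of -0.39 in KI (limma adjusted p = 0.766).

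Between genotypes with acLDL, Snx33, a sorting nexin with a BAR domain, and Asap1, a BAR domain activator of Arf GTPases, had log2 differences of -0.79 and -0.48 (limma adjusted p = 0.0803 and 0.0864). In the added comparison over both treatments these 2 were the members of the list that passed, at -0.53 and -0.35 (limma adjusted p = 0.0462 and 0.0464), in a fit that called the 3.39% of items given above. The count of 2 fell to 0 or 1 on leaving out any single array. Snx33 also had a difference of acLDL effects of -0.52 (limma adjusted p = 0.578). Without acLDL, Arfip2 and Amph, both with classical BAR domains, had genotype differences of 0.33 and 0.40 (limma adjusted p = 0.256 and 0.264).

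**Figure D5:**
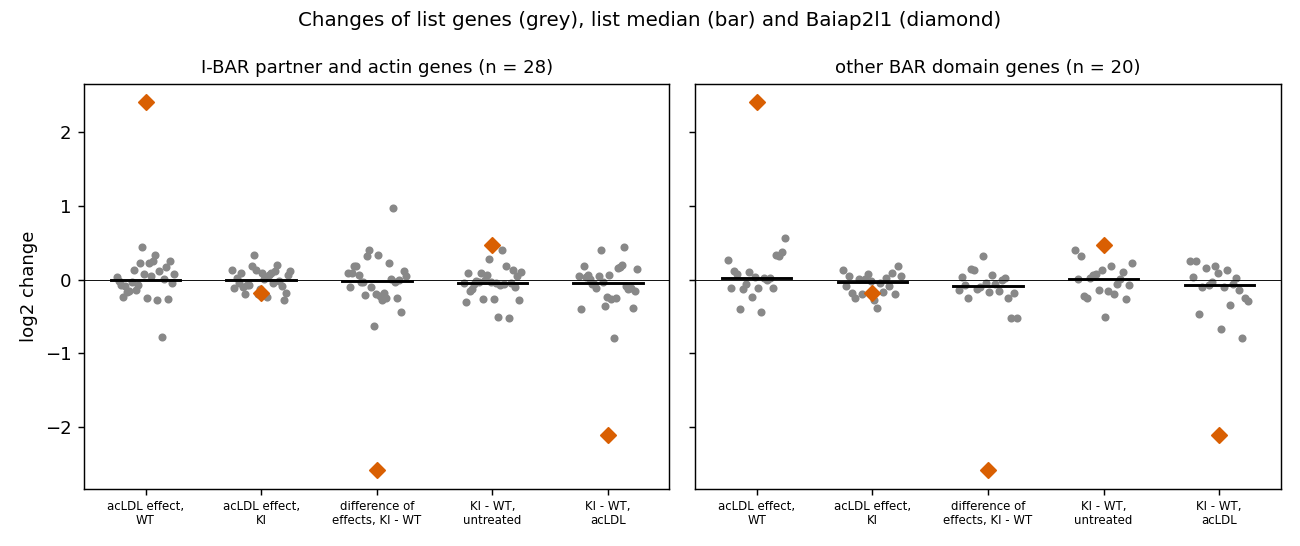
Log2 change (vertical axis) of each tested gene of the 2 lists (grey points, spread sideways by name), the list median (bar) and Baiap2l1 (diamond) in the 5 comparisons. List genes lie between -0.79 and 0.97, while Baiap2l1 stands outside them at 2.41, -2.59 and -2.12.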

How the data were processed

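The deposited intensity values are the authors' own. The submitters' processing notes name BeadStudio, with no version or role. The values include negatives (29.1% to 29.3% per array) and columns match within 1.4 units once sorted, so background subtraction and quantile normalization were inferred. The arrays' number limits the precision. Of a second table, 16 columns match no sample label and were not used. Intensities were corrected with limma's normexp (offset 16) and log2 transformed. Probes above 3 times the noise (12.2 units) on at least 2 arrays were kept, 11819 of 24613, and the brightest probe stood for a gene, giving 10187 items. Gene names come from a platform annotation joined by probe identifier (20984 probes with 1 symbol, 1 with several, 3628 with none), which is that of another platform than the chip in the labels, so names rest on an identifier meaning the same probe on both. Of the named probes, 20968 matched the gene table by number and 0 symbols changed.

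One limma fit (3.58.1, R 4.3.3) over all 8 arrays estimated 4 group means and 5 comparisons, with 4 residual degrees of freedom, eBayes and Benjamini-Hochberg adjustment over all items of a comparison at 0.05. The procedure was tested on simulated data. Named list genes are those past the threshold (up to 4) or otherwise the 2 with the smallest p per comparison. The 6 nearest genes follow the distance described. Members, lists and rules were chosen with earlier results of these data known. Alternatives were an offset of 50, no correction (with a floor of 1), cyclic loess, median centring, every probe on its own, no filter or one on all 8 arrays, a replicate block and leaving out each array. Slide as a block could not be fitted without slide labels. Figures used matplotlib 3.10.9.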

Additional observations from a re-analysis of the deposited data

Results flagged for a closer look

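The measured acLDL changes of Baiap2l1 had opposite signs in the 2 genotypes: both wild type acLDL arrays lay above both untreated ones, and both KI acLDL arrays lay below both untreated ones. How often arrays separate in this way over all items was not counted. The difference of effects, KI minus wild type, was -2.59 on the log2 scale. This difference was not tested here, because the gene was chosen for it. The KI change was -0.18 (95% interval -0.44 to 0.08). It is part of the difference for which the gene was chosen, so it is a description, and a fall in KI is not established.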

How the results depend on the processing

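For Baiap2l1, the log2 change with acLDL in wild type was 2.25 with an offset of 50, 2.67 without background correction and 2.31 to 2.52 on leaving out single arrays. The difference of effects was -2.41, -2.88 and -2.70 to -2.49 in these settings. The genotype difference with acLDL was -1.99, -2.31 and -2.19 to -2.05, and that without acLDL was 0.57 without background correction and 0.37 to 0.58 on leaving out single arrays. Its KI change ran from -0.25 to -0.11 on leaving out single arrays. The count of relatives called, and that of each list, was 0 in all 5 planned comparisons under every alternative run. Over both treatments, the Baiap2 difference was -0.80 without background correction (limma adjusted p = 0.0813), -0.60 without a filter (limma adjusted p = 0.117) and -0.67 to -0.52 on leaving out single arrays. In the same comparison the number of list genes called among the BAR domain genes was 0 instead of 2 without correction or without a filter, and 1 with the replicate block. That of the partner list there was 1 instead of 0 with an offset of 50 or a filter on all 8 arrays, and 2 with every probe on its own. Signs turned for small changes on leaving out single arrays: that of Baiap2 with acLDL in wild type ran from -0.12 to 0.18 (0.00 without untreated wild type replicate 1, -0.12 without wild type acLDL replicate 1), and its difference of effects ran from -0.30 to 0.01 (the latter without wild type acLDL replicate 1). The Mtss1 change in KI ran from -0.06 to 0.17 (-0.05 and -0.06 without replicate 2 of the untreated and of the acLDL group), and its untreated genotype difference from -0.20 to 0.02 (0.00 and 0.02 without replicate 2 of untreated wild type and of untreated KI). Without a filter the number of items called was 6, 1, 3, 0 and 8 in the 5 comparisons in the order given in the report, against 18, 2, 5, 1 and 22, and without background correction it was 5, 1, 2, 0 and 5. Genotype with acLDL gave 53 items with an offset of 50 and 61 with a filter on all 8 arrays, acLDL in KI gave 0 with that filter, and genotype over both treatments gave 2, 2, 661 and 671 without background correction, without a filter, with an offset of 50 and with that filter, against 345. On leaving out single arrays the counts were 2 to 30, 0 to 6, 1 to 4, 0 to 1, 4 to 16 and, over both treatments, 0 to 578. The causes were not tested. With the replicate number as a block, the Baiap2l1 changes were 2.41 in wild type and -2.59 for the difference, items called in the 5 comparisons were 7, 2, 1, 0 and 16, and no member's call changed. Deviations of same-numbered arrays correlated over 0.1 in 3 of 6 pairs of groups (-0.313 to 0.288), so the numbers were not shown to pair the arrays. Background limits Baiap2l2, which was under the noise limit on all 8 arrays.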
